A study of Drosophila melanogaster with 3 samples.

Results

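Of the 5400 reproducible peaks of CG5180-eGFP chromatin from Drosophila melanogaster embryos, 1648 (30.5%) lay in introns of protein-coding genes shorter than 50 kb. The summit of each of these peaks was more than 250 bp from every protein-coding transcription start site (TSS), in no annotated exon and inside at least 1 protein-coding gene, and the longest such host gene was under 50 kb. The rule uses position alone, so peak strength, recovery in the replicates and sequence were not used to choose members. Of the other reproducible peaks, 1676 were at promoters (within 250 bp of a TSS), 1009 were intergenic, 649 were in introns of hosts of 50 kb or more, 387 were in exons and 31 were in genes that are not protein-coding.

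The material for chromatin immunoprecipitation and sequencing (ChIP-seq) was whole embryos, males and females together, aged 0 to 16 h, from a transgenic line that makes CG5180 with GFP fused to its C terminus. An antibody against GFP was used, and 3 biological replicates form the only group. CG5180 is a gene known by its annotation number, and the labels do not say which promoter drives the fusion. No control library, untagged embryo or other GFP line was analysed here, and whether a region is also enriched in other GFP experiments was not tested.

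Introns near a gene's start often hold enhancers, the stretches of DNA through which transcription factors set when and where a gene is transcribed. In flies the first intron is commonly the longest and the one richest in such elements. A ChIP-seq peak marks where the tagged protein, or something bound to it, was crosslinked, and does not by itself show that a gene is regulated. The whole embryo mixes all cell types, so a strong peak in few cells and a weak peak in many cannot be told apart.

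The windows of 201 bp centred on the summits of the 4 strongest members are shown first. All sequences are the plus strand of dm6, read from RefSeq's release 6 genome. None of the following 4 windows held any of the 4 motifs printed in capitals in the later windows, and other motifs compared below are not marked. They lie at chr3L:3096172-3096372 in intron 2 of Cht7, chrX:18507083-18507283 in intron 2 of Ggt-1, and chr2L:5301382-5301582 and chr2L:5296934-5297134 in first introns of vri. Their GC contents were 37.3%, 46.3%, 59.2% and 56.2%.
Cht7: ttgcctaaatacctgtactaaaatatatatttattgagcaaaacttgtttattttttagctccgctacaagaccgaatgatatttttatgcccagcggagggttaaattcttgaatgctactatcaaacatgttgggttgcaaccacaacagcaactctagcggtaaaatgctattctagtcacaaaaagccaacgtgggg
Ggt-1: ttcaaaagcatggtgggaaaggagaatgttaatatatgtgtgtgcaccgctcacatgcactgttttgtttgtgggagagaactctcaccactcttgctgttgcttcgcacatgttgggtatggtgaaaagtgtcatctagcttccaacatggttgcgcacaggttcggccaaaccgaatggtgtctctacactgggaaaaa
vri, strongest: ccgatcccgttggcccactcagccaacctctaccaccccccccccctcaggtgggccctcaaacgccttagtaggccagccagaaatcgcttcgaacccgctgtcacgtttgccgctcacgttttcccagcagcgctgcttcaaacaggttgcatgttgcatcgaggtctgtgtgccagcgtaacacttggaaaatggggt
vri, next strongest: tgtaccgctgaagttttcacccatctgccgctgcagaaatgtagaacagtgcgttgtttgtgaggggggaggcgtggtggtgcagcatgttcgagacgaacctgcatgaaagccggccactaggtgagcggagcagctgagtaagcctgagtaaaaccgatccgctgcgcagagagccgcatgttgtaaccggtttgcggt

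The next windows carry the short sequences whose frequency differed at the members' summits, which are printed in capitals on whichever strand they occur. The first 2 windows are the strongest with a TATAAA match and the last 2 the strongest with a GGAATG match, apart from those above. The window in sky, which also lies inside CG43739, is chr2L:20917612-20917812 and has 1 TATAAA and 1 GCCAT match at 23.9% GC. The Trl window is chr3L:14759416-14759616, with 1 TATAAA match at 24.9% GC. The Gug window is chr3L:8459789-8459989, with 2 GCCAT matches and 1 GGAATG match, and the CG8420 window is chr3R:9249125-9249325, with 1 of each.
sky: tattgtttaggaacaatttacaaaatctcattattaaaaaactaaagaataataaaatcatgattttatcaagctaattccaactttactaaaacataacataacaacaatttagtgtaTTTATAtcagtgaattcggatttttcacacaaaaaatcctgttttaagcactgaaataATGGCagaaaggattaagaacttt
Trl: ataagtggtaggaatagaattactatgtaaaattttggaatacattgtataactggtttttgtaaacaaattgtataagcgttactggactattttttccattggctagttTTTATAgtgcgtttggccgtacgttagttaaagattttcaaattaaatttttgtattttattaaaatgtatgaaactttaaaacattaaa
Gug: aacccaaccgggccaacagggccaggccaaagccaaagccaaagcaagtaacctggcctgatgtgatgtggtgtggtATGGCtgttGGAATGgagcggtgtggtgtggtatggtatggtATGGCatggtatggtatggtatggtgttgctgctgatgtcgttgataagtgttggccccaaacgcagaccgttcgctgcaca
CG8420: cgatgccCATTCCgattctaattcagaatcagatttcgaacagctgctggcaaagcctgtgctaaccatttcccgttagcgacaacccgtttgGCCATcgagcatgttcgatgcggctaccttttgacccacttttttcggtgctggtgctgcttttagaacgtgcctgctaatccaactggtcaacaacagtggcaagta

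Signal values, the score per peak that the authors' caller gave, ran from 182 to 19296 among the 1648 members, with a median of 301.1 and quartiles of 223.3 and 494.4. The strongest member was in intron 2 of Cht7, a member of the chitinase family. Its signal was 19296 in the pooled list and 8159, 6790 and 4468 in replicates 1, 2 and 3. The peak, chr3L:3095364-3096774, spans 4 tRNA genes, tRNA:Cys-GCA-1-1, tRNA:Cys-GCA-1-2, tRNA:Cys-GCA-1-3 and tRNA:Lys-CTT-1-12, and its summit is 10686 bp from the nearest protein-coding TSS. One further member overlapped a tRNA gene, a peak of signal 291.9 over tRNA:Leu-TAA-4-1 in jar. The peak in Ggt-1, a gamma-glutamyl transpeptidase gene, had a pooled signal of 18378, and 8005, 6204 and 4266 in the replicates. Its nearest TSS, 1778 bp away, is that of Wnt5 and not of its host.

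A pair of peaks in vri, which encodes a bZIP repressor of the circadian clock that also acts in embryonic patterning, followed. The peak at chr2L:5300114-5302041 had a pooled signal of 18051, with 7508, 6246 and 4431 in the replicates. The peak at chr2L:5296320-5298200 had 14026, with 6085, 4414 and 3550. Both lie in first introns of vri, 1835 and 2613 bp from its nearest TSS. The fifth, in intron 2 of crp, a bHLH-ZIP transcription factor gene, had 10666 in the pooled list. Gug, the gene of the corepressor Atrophin, held a member of 9158, and dsx, the sex determination gene, one of 8832.

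**Figure D1:**
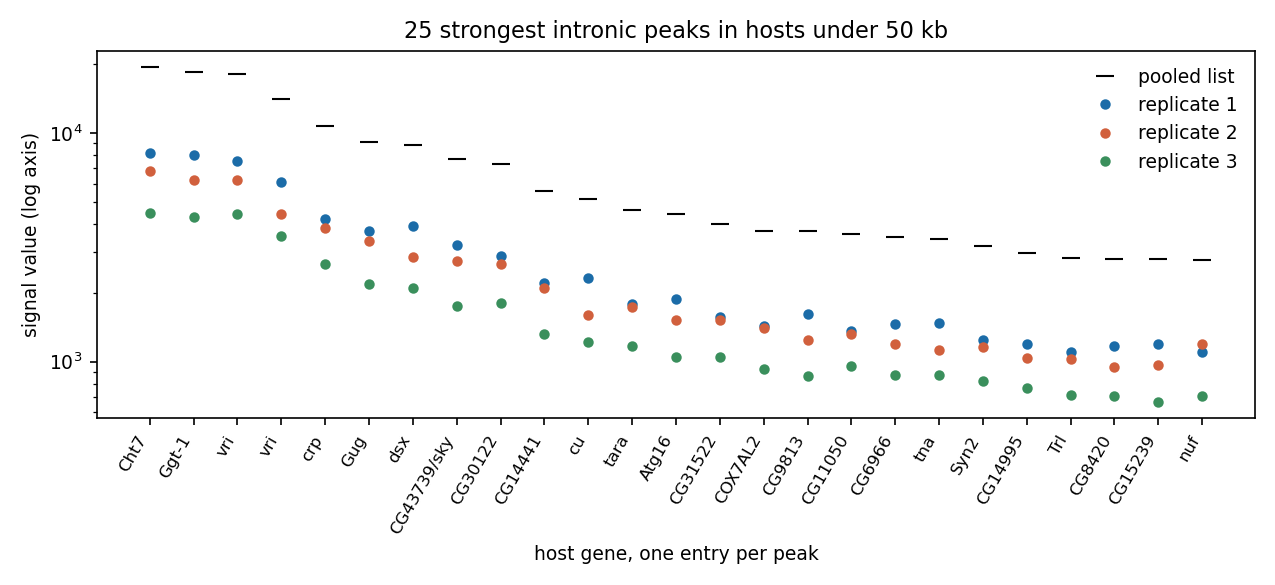
Signal value (log axis) of the 25 strongest intronic peaks in hosts under 50 kb, one position per peak and named by host gene, in the pooled list (dashes) and in replicates 1, 2 and 3 (points). Replicate 3 is the lowest of the 3 at every peak, and the pooled value falls from 19296 at Cht7 to 2788 at nuf.

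The remaining members among the 25 strongest ran from 7692 in sky, a GTPase-activating protein gene of synaptic vesicle traffic, down to 2788 in nuf, the gene of a Rab11 effector of recycling endosomes. They included CG30122 (7280), CG14441 (5541), the nocturnin-family gene cu (5114), the trithorax-group gene tara (4582), the autophagy gene Atg16 (4416), CG31522 (4011), COX7AL2 (3733) and CG9813 (3714). Below these came CG11050 (3612), CG6966 (3489), tna (3439), the syntrophin gene Syn2 (3216), CG14995 (2980), Trl (2840), CG8420 (2804) and CG15239 (2803). The 25 were chosen among members with a summit within 200 bp in all 3 replicate lists, so their presence there is not a result. Their ranks in replicates 1, 2 and 3 were 36 to 262, 28 to 273 and 37 to 262 of the 30000 peaks in each list. Of the 25, 14 were in a first intron, a lower share than the 76.2% of all members. A host that also carried a reproducible peak at a TSS was found for 18 of the 25, beside 47.9% of all members. Their summits were 251 to 10686 bp from the nearest TSS (median 1835 bp). Their peak intervals were long, and 24 of 25 were wider than 464 bp, the median of all 5400 reproducible peaks. The widest, 3377 bp at tara, holds 6 members under 1 interval.

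Pooled peaks in introns of shorter hosts were reproducible more often than those in introns of longer hosts or between genes, and less often than those at promoters. The pooled list, made from the 3 replicates together, has 30000 peaks and is labelled as peaks and background. The 5400 strongest are the reproducible ones, kept by the irreproducible discovery rate (IDR) method, so 18% of all pooled peaks were reproducible. The others can include background, and how many do was not tested. Of the 9005 pooled peaks that meet the rule, 1648 were reproducible, or 18.3% (Wilson 95% interval 17.5 to 19.1%). The share was 11.7% (649 of 5567) in introns of longer hosts, an odds ratio of 1.70 in favour of shorter hosts (Fisher's exact test, Benjamini-Hochberg (BH) adjusted p = 2.51e-27). It was 14.2% (1009 of 7096) for intergenic summits (odds ratio 1.35, exact BH p = 3.52e-12) and 34.2% (1676 of 4894) at promoters (odds ratio 0.430, exact BH p = 5.88e-95). These and all further tests compare peaks within the pooled data, peaks are not replicates, and the p-values do not measure the spread between embryos.

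Among reproducible peaks, members were weaker than promoter peaks, and their share of the strongest 2700 was not past the threshold against the other classes. With 50% of all reproducible peaks counted as the strongest 2700, 764 of 1648 members were in that group, or 46.4%. The share was 45.8% for introns of longer hosts (odds ratio 1.02, Fisher's exact BH p = 0.816, the share in shorter hosts having an interval of 44.0 to 48.8%). It was 48.1% for intergenic peaks (odds ratio 0.934, exact BH p = 0.601) and 57.3% for promoters (odds ratio 0.643, exact BH p = 7.68e-10). Among the strongest 540 the intergenic comparison was past the threshold, with 88 members (5.34%) against 107 intergenic peaks (10.6%; log2 odds ratio -1.07, exact BH p = 1.13e-06). The gap to promoters was wider there, at 267 promoter peaks (15.9%; log2 odds ratio -1.75, exact BH p = 2.21e-23), and among the strongest 25% of IDR peaks the shares were 21.3% of members and 33.6% of promoter peaks (log2 odds ratio -0.902, exact BH p = 5.70e-15).

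Members were recovered from single replicates about as often as other reproducible peaks outside promoters. A member counted as recovered where a summit among the replicate's strongest 5400 peaks lay within 200 bp. Replicate 1 recovered 1438 members (87.3%), replicate 2 recovered 1421 (86.2%) and replicate 3 recovered 1344 (81.6%), a mean of 85.0% ± 3.04 (SD, n = 3). All 3 replicates recovered 1101 members (66.8%), against 68.7% of all reproducible peaks, while 361 were recovered by 2 replicates, 178 by 1 and 8 by none. Introns of longer hosts gave 68.1% (odds ratio 0.943, Fisher's exact BH p = 0.865), intergenic peaks 67.2% (exact BH p = 0.865) and promoters 72.7% (odds ratio 0.757, exact BH p = 7.43e-04). The promoter difference was lost without replicate 3, at a log2 odds ratio of -0.197 (exact BH p = 0.313), and with hosts limited to 25 kb (exact BH p = 0.0537). Among the strongest 2700 reproducible peaks its sign was reversed (log2 odds ratio 0.399, exact BH p = 0.540). Recovery needs a place among a replicate's strongest peaks and promoter peaks were stronger, so the promoter difference cannot be told apart from signal. Of each replicate's own 5400 strongest peaks, 1655, 1614 and 1580 met the rule, or 29.9% ± 0.695 (SD, n = 3).

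Over the 1618 members with a summit in all 3 whole lists, Spearman's correlation between replicates' signals was 0.773 (1 and 2), 0.774 (1 and 3) and 0.765 (2 and 3). These are descriptions across peaks of libraries that share their genome and peak caller, not tests. Of the 412 strongest members (signal of 494 or more), 98.5% were recovered by all 3 replicates, against 10.2% of the 412 weakest. Recovery requires a place among a replicate's strongest peaks, so it is tied to signal by definition. This contrast therefore does not measure how reproducible weak members are. The whole lists of replicates 1, 2 and 3 held a summit for 99.33%, 99.27% and 99.39% of all members. The reproducible peaks were chosen by agreement between these same lists.

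Reproducible intronic peaks were concentrated in first introns. Of the 1648 members, 1256 (76.2%) were in the first intron of a transcript of their host, against 4600 of 6858 weaker peaks (67.1%; odds ratio 1.57, Fisher's exact p = 2.83e-13). Weaker peaks are the pooled peaks that meet the same rule and overlap no reproducible peak, and they can include background. Intron 2 held 15.9% of members and 21.0% of weaker peaks, intron 3 held 4.31% and 5.51%, and later introns 3.58% and 6.40%. First introns make up 54.1% of the 27.2 Mb of sequence in which a summit would meet the rule. They held 85.4 members per Mb and later introns 31.4 per Mb, while introns of longer hosts held 27.8 reproducible peaks per Mb, intergenic sequence 29.1 and promoters 200.

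Members also lay close to gene starts. The median distance from the nearest protein-coding TSS was 1868 bp among members and 2892 bp among weaker peaks in like places, and 493 members (29.9%) were within 1 kb against 19.2% of weaker peaks (odds ratio 1.80, Fisher's exact p = 1.90e-20). The nearest TSS belonged to the host for 1415 members (85.9%) and for 81.0% of weaker peaks (odds ratio 1.42, exact p = 3.40e-06), a comparison chosen after values had been seen. The host itself had a reproducible peak at a TSS for 790 members (47.9%) and for 42.0% of weaker peaks (odds ratio 1.27, exact p = 1.54e-05). For 52 members, overlapping peak intervals joined the summit to a promoter summit.

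Distance and intron order could be read separately. Within 250 to 500 bp of a TSS, 81.6% of members and 85.6% of weaker peaks were in a first intron (Fisher's exact BH p = 0.245 over the 6 distance classes). From 500 to 1000 bp the shares were 87.1% and 85.2% (odds ratio 1.17, exact BH p = 0.496). From 1000 to 2000 bp they were 82.7% and 78.3% (odds ratio 1.33, exact BH p = 0.101). From 2 to 5 kb the shares were 73.0% and 66.3% (odds ratio 1.38, exact BH p = 0.0198), and from 5 to 10 kb they were 65.2% and 54.9% (odds ratio 1.54, exact BH p = 0.0149). Beyond 10 kb they were 52.9% and 42.8% (odds ratio 1.5, exact BH p = 0.101). The excess in first introns was past the threshold only in the classes from 2 to 10 kb, and a difference between the classes was not tested.

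**Figure D2:**
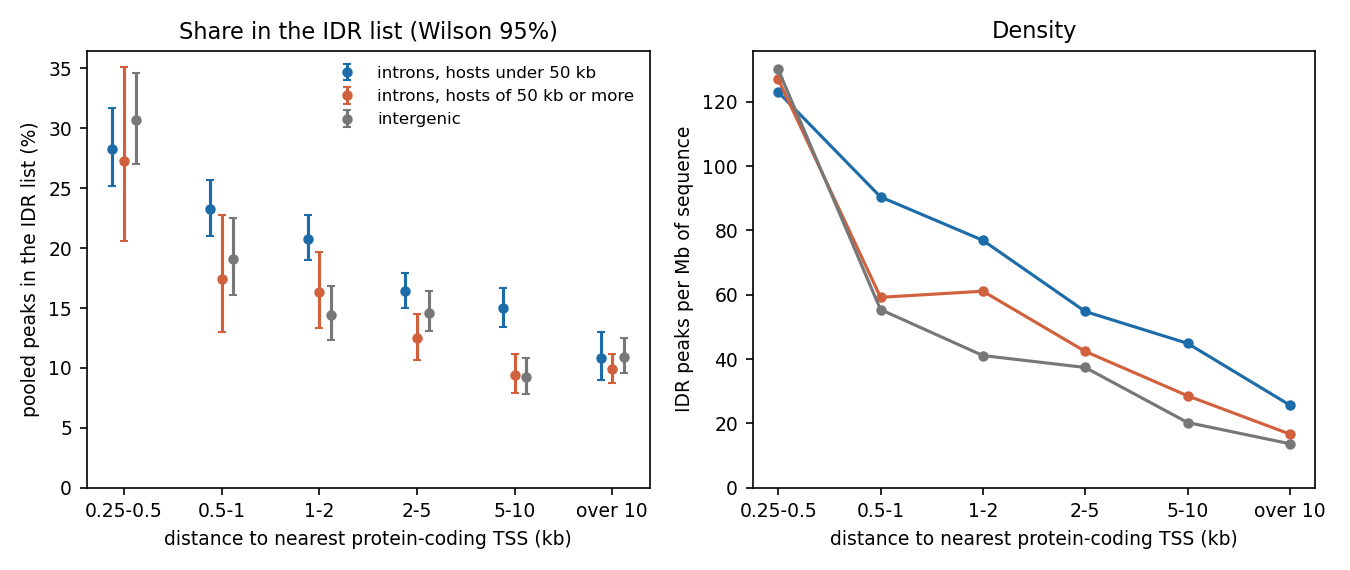
Left, percentage of pooled peaks that are in the IDR list by distance of the summit from the nearest protein-coding TSS (kb), with Wilson 95% intervals, for introns of hosts under 50 kb, introns of longer hosts and intergenic summits. Right, IDR peaks per Mb of sequence of each class, where introns of shorter hosts fall from 123 at 0.25 to 0.5 kb to 25.7 beyond 10 kb.

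The difference between shorter and longer hosts was likewise read at matched distance. At 250 to 500 bp, 28.3% of pooled peaks in shorter hosts and 27.3% in longer hosts were reproducible (odds ratio 1.05, Fisher's exact BH p = 0.839). At 500 to 1000 bp the shares were 23.3% and 17.4% (odds ratio 1.44, exact BH p = 0.0861). At 1000 to 2000 bp they were 20.8% and 16.3% (odds ratio 1.35, exact BH p = 0.0526). At 2 to 5 kb the shares were 16.4% and 12.5% (odds ratio 1.38, exact BH p = 0.00503), and at 5 to 10 kb they were 15.0% and 9.42% (odds ratio 1.69, exact BH p = 3.32e-05). Beyond 10 kb they were 10.8% and 9.90% (odds ratio 1.11, exact BH p = 0.490). The excess was past the threshold from 2 to 10 kb and not in the other classes, and a difference between the classes was not tested. In reproducible peaks per Mb, shorter hosts fell from 123 in the nearest class to 25.7 in the farthest, longer hosts from 127 to 16.7 and intergenic sequence from 130 to 13.7.

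Features of other kinds were rare at these peaks. The start of a gene annotated with the biotype ncRNA lay within 250 bp of 18 members (1.09%) and of 0.496% of weaker peaks (Fisher's exact p = 0.00811). That biotype leaves out tRNA and snoRNA genes. A transposable element was overlapped by 2 members (0.121%) and by 47 weaker peaks (0.685%, exact p = 0.00332). A tRNA gene was overlapped by 2 members (0.121%) and by 16 weaker peaks (0.233%, Fisher's exact p = 0.553). These comparisons were all made after values had been seen. By chromosome arm, 2 of 6 arms (33.3%) were past the threshold. Arm 3R held 436 members (26.5%) against 22.4% of weaker peaks (odds ratio 1.24, exact BH p = 0.00309), and 2L held 268 (16.3%) against 19.8% (odds ratio 0.788, exact BH p = 0.00309). Per Mb of sequence that meets the rule, 3R was close to the 60.6 members of all arms together. The values were 54.5 on 2L, 61.5 on 2R, 59.9 on 3L, 61.8 on 3R, 5.04 on 4 and 70 on X. Leaving out a replicate kept only the members recovered by every other replicate, 1196, 1207 and 1261 without replicates 1, 2 and 3. The call on 3R was lost in each of these smaller sets (exact BH p of 0.177, 0.134 and 0.176). That on 2L was lost in the set without replicate 3 (exact BH p = 0.147). Whether the replicate or the smaller number of members lost these calls was not tested. The 2L call was also lost with hosts limited to 25 kb (log2 odds ratio -0.07, exact BH p = 0.627). With that limit 3L was past the threshold (log2 odds ratio -0.33, exact BH p = 0.0281), and among the strongest 2700 neither 3R nor 2L was (exact BH p of 0.772 and 0.145).

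The DNA under most members was poorer in G and C than the DNA beside it. Over windows of 201 bp, median GC content was 38.3% at member summits, 41.3% in the windows centred 500 bp to the left and 40.8% in those 500 bp to the right. The summit window had the lower GC content in 967 members and the higher in 658 (59.5% of those that differ, exact binomial p = 1.81e-14), and against the right flank the counts were 943 and 679 (exact p = 5.97e-11). Weaker peaks in like places divided evenly, 3366 lower and 3380 higher (exact binomial p = 0.874). The difference between members and weaker peaks had an odds ratio of 1.48 (Fisher's exact BH p = 1.51e-11 over 5 comparisons). Introns of longer hosts, with 333 lower and 306 higher, also differed from the members (odds ratio 1.35, exact BH p = 0.00194), as did intergenic peaks (odds ratio 1.21, exact BH p = 0.0226) and promoters (odds ratio 1.55, exact BH p = 1.27e-09). A dip at the summit was not particular to shorter hosts. From 200 to 150 bp left of it, mean GC was 43.1% in members, 43.5% in longer hosts and 43.0% in intergenic peaks. In the last 50 bp before the summit it was 38.0%, 38.9% and 39.6%. From 500 to 450 bp left, where the flank lies, it was 41.4%, 40.4% and 41.4%. For summits more than 2 kb from a TSS, the log2 ratio of lower to higher members was 0.268 (exact p = 0.0109), against 0.555 over all members. All GC comparisons were chosen after values had been seen.

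Wide members went the other way. The 122 members wider than 464 bp had a median GC content of 47.3% at the summit against 40.5% in the left flank, and the summit was lower in 42 and higher in 80 (exact binomial p = 7.41e-04). The 1526 others had medians of 37.8% and 41.3%, with 925 lower and 578 higher (exact binomial p = 3.12e-19). The groups differed from each other with an odds ratio of 0.328 (Fisher's exact BH p = 1.33e-08). Wide members were strong, with a median signal of 1038, against 241.8 for the 1065 members of exactly 464 bp and 550.7 for the 461 narrower ones. Of the 25 strongest, 18 had a summit window over 45% GC, with the windows of sky and Trl printed above among the exceptions.

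**Figure D3:**
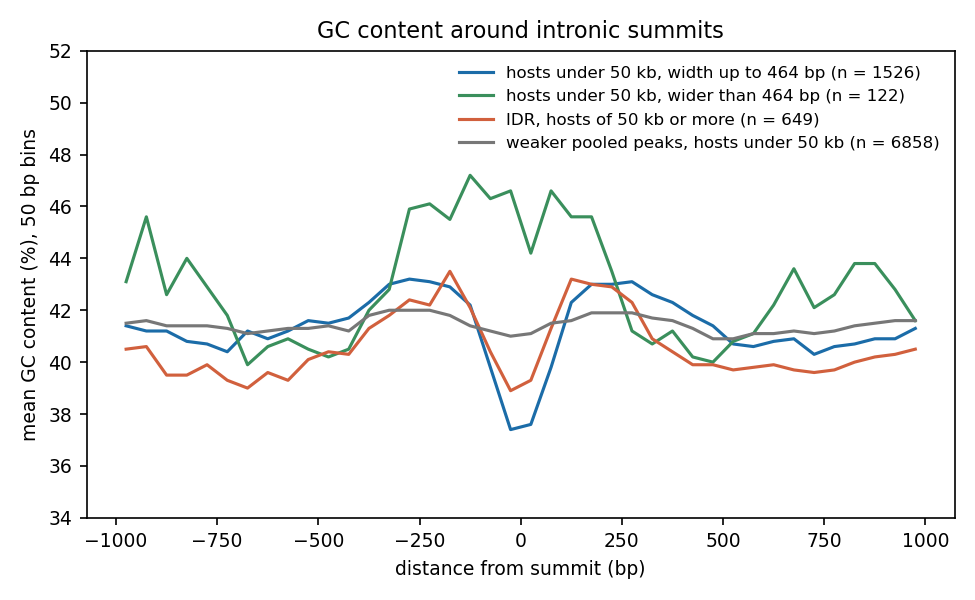
Mean GC content (%, 50 bp bins) by distance from the summit (bp, plus strand) for members up to 464 bp wide (n = 1526), wider members (n = 122), IDR peaks in hosts of 50 kb or more (n = 649) and weaker peaks that meet the same rule (n = 6858). The narrower members and the peaks in longer hosts dip at the summit, the wider members are high across it, and the vertical axis starts at 34%.

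Few short motifs differed in frequency at the members' summits, and none of those did so past the threshold among windows of similar GC content. Consensus sequences of 25 factors or core promoter elements were searched for, on either strand, from 100 bp before to 100 bp after each summit. Against the left flank, 2 of 25 (8%) were past the threshold. TATAAA, the TATA box, was in 471 member windows (28.6%) and 364 flanks (ratio 1.29, exact McNemar exact BH p = 7.00e-04), and GCCAT, the core of the Polycomb-recruiting factor Pho, in 444 (26.9%) and 538 (ratio 0.825, exact BH p = 0.00392). Against weaker peaks, 4 of 25 (16%) were past it. TATAAA was in 28.6% of members and 23.5% of weaker peaks (odds ratio 1.30, Fisher's exact BH p = 2.71e-04) and GCCAT in 26.9% and 33.4% (odds ratio 0.734, exact BH p = 7.92e-06). GGAATG, bound by Scalloped, was in 6.92% and 9.73% (odds ratio 0.690, exact BH p = 0.00250), and TTTATGG, bound by Caudal, in 4.85% and 6.96% (odds ratio 0.682, exact BH p = 0.00975). The TTTATGG difference was lost with hosts limited to 25 kb (log2 odds ratio -0.439, exact BH p = 0.226).

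None of these motif differences was past the threshold in windows of 35 to 45% GC, where 619 members and 3082 weaker peaks remain. There the log2 odds ratio against weaker peaks was -0.270 for GCCAT (exact BH p = 0.266), 0.191 for TATAAA (exact BH p = 0.493), -0.583 for GGAATG (exact BH p = 0.236) and -0.410 for TTTATGG (exact BH p = 0.493), in the same directions as before. Over all windows these values were -0.446, 0.382, -0.536 and -0.551, so that of GGAATG was no smaller in the band. The band holds fewer windows, with 279 members left for the flank comparison. Whether GC content or the smaller number lost the calls was not tested. An A tract of 7 bases, at a log2 odds ratio of 0.04 in all windows (exact BH p = 0.851), was lower in members in that band (-0.599, exact BH p = 0.00774). Against introns of longer hosts, 0 of 25 (0%) were past the threshold and 1 had an unadjusted p below it. That motif was TTTATGG, at 4.85% against 2.16% (odds ratio 2.31, Fisher's exact p = 0.00319, exact BH p = 0.0797). GAGAGAG, bound by the GAGA factor that Trl encodes, was in 5.64% of members, 6.61% of their flanks, 4.29% of weaker peaks (exact BH p = 0.105) and 6.47% of peaks in longer hosts (exact BH p = 0.893). A match is a string of letters and not a bound site, and the TATAAA and TTTATGG strings can share bases.

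The 1648 members fell in 951 host genes, 9.54% of the 9971 protein-coding genes under 50 kb with at least 1 base where a summit could meet the rule. Of these hosts 560 held 1 member, 207 held 2, 94 held 3, 45 held 4 and 45 held 5 or more, and 85 members lay in more than 1 host. Hosts were mostly genes with long introns, since 46.1% of genes with over 10 kb of such sequence were hosts and 0.257% of those with at most 500 bp. A reproducible peak at a TSS was present in 384 hosts (40.4%) and in 984 of the 9020 other genes (10.9%), with 13.7% over all eligible genes. Among genes with over 10 kb of such sequence the shares were 47.7% and 19.1%, higher in hosts here too. No test was made over genes.

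tara, which encodes a trithorax-group protein known for roles in cell cycle exit and sleep, held the most members, 24. All lay in first introns of its transcripts on 3R, from 1497 to 30648 bp beyond its most upstream start, in a gene of 34679 bp. Their pooled signals ran from 184.4 to 4582 with a median of 599, and 8 were over 1000. The strongest, chr3R:16234184-16237560 with its summit at 16235464, had 1784, 1740 and 1171 in the replicates. The next was 15610 bp from the start, with 2348 in the pooled list and 1008, 872.3 and 509.1 in the replicates. Of the 24, 23 had a summit in all 3 replicate lists, and the weakest, of 184.4, had none within 200 bp in replicate 2. Some of tara's summits are about 200 bp apart under 1 interval and can match the same replicate peak, so they are not separate observations.

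vri held 12 members, all in first introns, from 2529 to 17954 bp beyond its start, with signals from 266.6 to 18051 and a median of 828. Only 4 were over 1000, and after the pair named above the strongest were 1705 and 1402. tna, which encodes a protein with a SUMO ligase type zinc finger that interacts genetically with Brahma, held 10, from 209.5 to 3439. A single one of these was over 1000, and it had 1479, 1126 and 870.8 in the replicates. crp held 9, with 5 in a first intron, and its strongest (10666, with 4207, 3851 and 2666 in the replicates) stood above the others, which ran from 184.3 to 779.7. CHES-1-like, a forkhead transcription factor gene, held 9 of more even strength, from 196.7 to 1111 with a median of 618. Each of these 5 hosts also had a reproducible peak at a TSS.

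**Figure D4:**
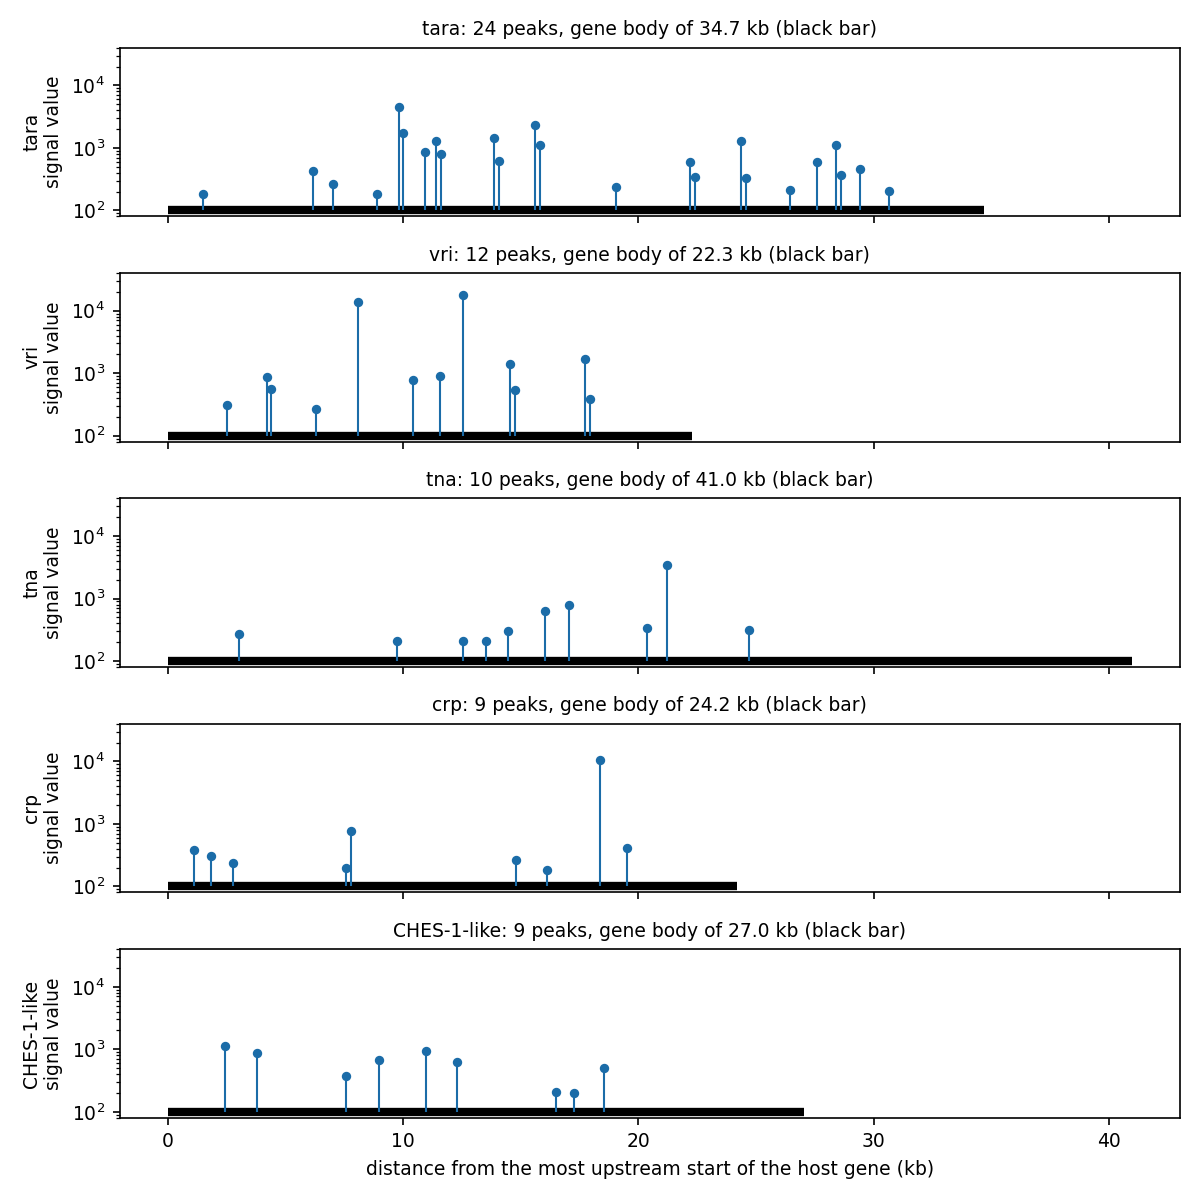
Signal value (log axis) of each intronic peak against its distance (kb) from the most upstream start of the host, for the 5 hosts with the most members; the black bar is the gene body. tara has 24 peaks spread along its first introns, while at vri and crp 2 and 1 peaks respectively stand over 10000.

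Signalling genes with members covered ligands, receptors and their relays. These lists were set with earlier results of the data known, contain many genes with long introns, and are described by counts beside the 9.54% of all eligible genes and the 41.6% (618 of 1485) of eligible genes with over 5 kb of sequence that meets the rule. In the list of the EGF receptor and Ras-MAPK, 9 of 17 eligible genes were hosts (52.9%), and 6 of 9 over 5 kb. S, a transmembrane protein needed to traffic the ligand Spitz, had a member of 929.2 with 340, 357 and 230 in the replicates. edl, an antagonist of ETS factors, had 853.8, and vn, a secreted neuregulin-like ligand, had 809. Of the list with FGF, PVR and other receptor kinases, 10 of 17 were hosts (58.8%; 9 of 12 over 5 kb), led by the insulin receptor gene InR at 1090 (410, 409 and 266), otk at 538.3 and the FGF receptor adaptor gene stumps at 404.4.

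In the Dpp and activin list 7 of 17 were hosts (41.2%; 6 of 8 over 5 kb). Mad, the Smad that carries the Dpp signal, had a member of 1230 (470, 462 and 300), the inhibitory Smad gene Dad one of 822.2 among its 5, and the glypican gene dlp one of 594.1 among its 5. Wnt and Hedgehog genes had 10 hosts of 30 (33.3%; 10 of 16 over 5 kb). The homeodomain gene inv led with 1775 (821, 505 and 463), before the Wnt antagonist gene nkd with 926.4 among 6 members and the Hedgehog receptor gene ptc with 483.9. In the Notch list 5 of 18 were hosts (27.8%; 5 of 7 over 5 kb), with cno, a junctional protein, at 1716 (643, 604 and 460), the receptor gene N at 711 and the corepressor gene CtBP at 519.4. JAK-STAT, Toll and immune signalling had 4 of 16 (25%; 4 of 6 over 5 kb), with the NF-kappaB family gene Dif at 1240 (442, 457 and 349), Stat92E at 1009 (470, 294 and 244) and the inhibitor gene cact at 412.8.

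Lists of patterning, neural, muscle, hormone and clock genes varied in their share of hosts. Of 32 patterning factors 5 were hosts (15.6%), and 5 of 17 with over 5 kb (29.4%, beside 41.6% of all such genes). The Hox genes lab (1113, with 370, 384 and 355) and Abd-B (779.5) had the strongest, and GATAe had 324.7. The neural list had 6 of 24 (25%; 5 of 13 over 5 kb), led by the NHL-domain gene brat at 1068 (433, 370 and 265), chn at 752.2 among 6 members and grh at 649.1. Mesoderm and muscle genes had 4 of 23 (17.4%; 4 of 12 over 5 kb), with mbc at 436.2, Mef2 at 411.3 and how at 363.2. Ecdysone and nuclear receptor genes had 5 of 14 (35.7%; 5 of 9 over 5 kb), led by Hr3 at 1726 (641, 631 and 459), with Hr39 at 440.1 and Hnf4 at 359.7. Clock and bZIP genes had 7 of 16 (43.8%; 7 of 10 over 5 kb), where vri stood above CrebB at 390.8 and sgg, the GSK3 gene that the Wnt list also holds, at 352.8.

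Chromatin regulators had 11 hosts of 41 (26.8%), but 8 of 8 with over 5 kb of sequence, and these 11 held 57 members, 24 of them in tara. The median of each host's strongest signal was 903, against 360 over all hosts. Trl had 7 members, the strongest of 2840 with 1102, 1031 and 712.3 in the replicates, and the Polycomb group gene ph-p had 3, the strongest of 2192 with 821, 840 and 567. The Brahma complex gene osa had 9, up to 954.1. For tara, Trl and ph-p, replicate 3 gave the lowest of the 3 values.

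Genes of adhesion and of the nervous system were hosts as well. Adhesion, integrin and matrix genes had 9 of 28 (32.1%; 6 of 14 over 5 kb), with a median strongest signal of 246 beside 360 over all hosts, and among them were the talin gene rhea at 514.6, the integrin alpha gene mew at 505.1 among 9 members and the laminin gene LanA at 409.5. LanA's value rested unevenly on the replicates, at 177, 58.9 and 124. Axon guidance and synapse genes had 7 of 19 (36.8%; 7 of 11 over 5 kb), with the netrin receptor gene fra at 662.7, NetA at 428.1 and Abl at 353. Ion channel genes had 4 of 20 (20%; 4 of 14 over 5 kb), with KCNQ at 740.5, Irk1 at 566.4 and Ih at 262.9.

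Among the remaining lists, growth, insulin and Hippo genes had 10 of 28 (35.7%; 9 of 12 over 5 kb), with InR again first, then sd, the gene of the Hippo pathway factor Scalloped, at 912 and the caspase inhibitor gene Diap1 at 637.9. Lipid and intermediate metabolism had 11 of 23 (47.8%; 4 of 7 over 5 kb), with the lipase gene bmm at 1248 (494, 461 and 307), the glycolytic gene Eno at 845.6 and SREBP at 767.8. RNA-binding genes had 6 of 18 (33.3%; 6 of 8 over 5 kb), with ps at 453, Sxl at 432.8 and orb2 at 365.9. The glycosylation list had 3 of 14 (21.4%; 1 of 2 over 5 kb), with Galphai, a G protein gene that does not belong to that process, at 256.8, mmy at 253.1 and Pgant2 at 230.4. Ribosomal protein and translation genes had 1 host of 37 (2.70%), eEF1alpha1 at 221, although 27 of the 37 (73.0%) were hosts or had a reproducible peak at a TSS, against 1935 of all 9971 eligible genes (19.4%). Their median sequence that meets the rule was 332 bp, beside 397 bp over all eligible genes. Only 1 of the 37 had over 5 kb of it, beside 1485 of all 9971, and that gene was not a host.

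**Figure D5:**
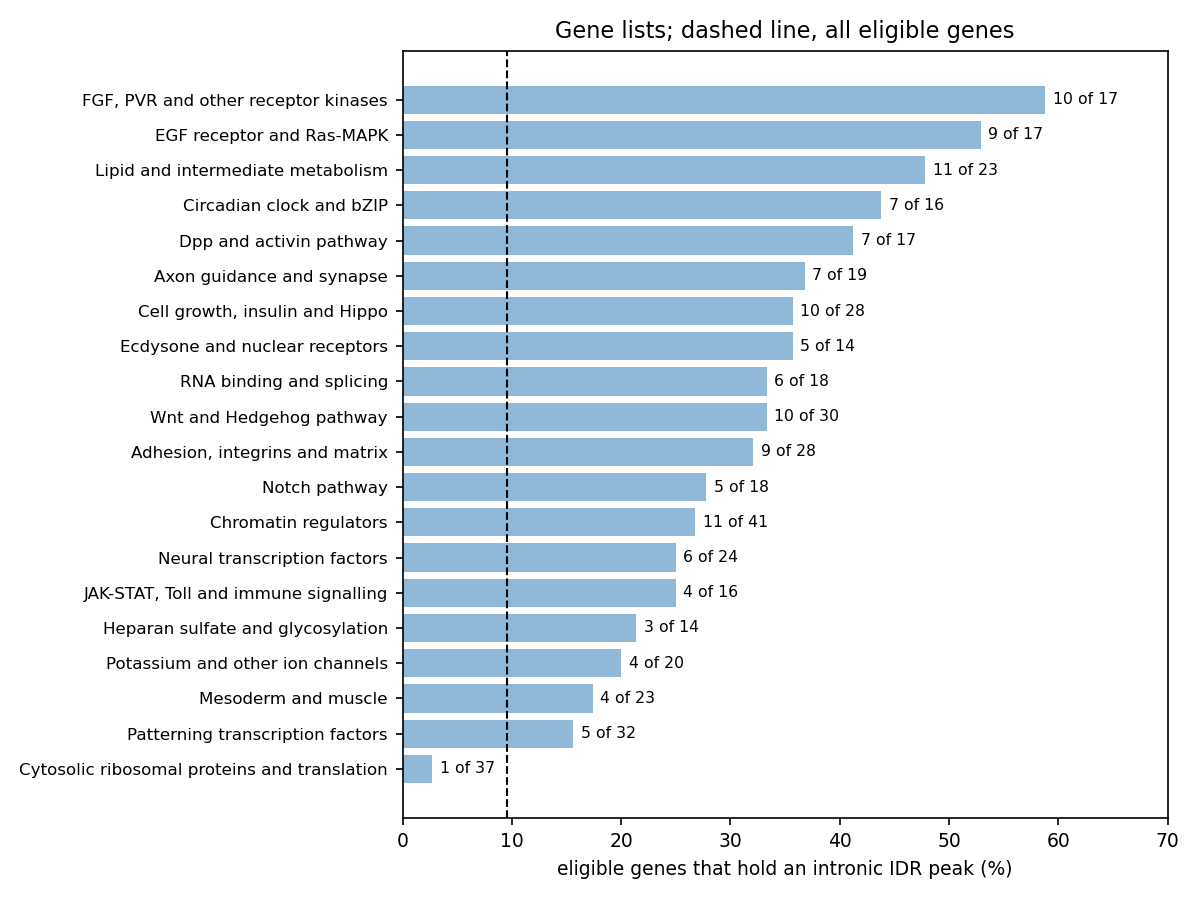
Percentage of eligible genes in each of 20 gene lists that hold an intronic IDR peak, with the number of hosts and of eligible genes beside each bar; the dashed line is the 9.54% of all 9971 eligible genes. The lists differ in intron length, and the bars run from 2.70% for ribosomal proteins and translation to 58.8% for FGF, PVR and other receptor kinases.

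The 50 kb limit separated no gap in gene length. Just inside it were cdi at 49389 bp with members of 296.1 and 191.8, Plc21C at 49632 bp with one of 206.3, and NetA at 49917 bp with 3 of 428.1, 357.6 and 222.9. Just outside were Sytbeta at 50283 bp with a peak of 276, and ab at 50403 bp with 5 peaks of 12518, 476.8, 331, 305.1 and 295.4.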

How the data were processed

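The authors deposited a list of 30000 peaks per replicate, a pooled list labelled as peaks and background, and an IDR list of 5400 peaks on dm6. Per the notes deposited with the libraries, each replicate's list came from its alignments and 1 further file, while the IDR list was made from those lists and the pooled one. No source used here gives the caller, its settings or the IDR threshold. The authors' signal value is the caller's score, and the other column used is the deposited offset of the summit in bp. Scores serve here only for ranks and descriptions inside one list, and read depth is unknown. Wilson 95% intervals cover counting error only.

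Gene models were Ensembl release 115 (13945 protein-coding genes on the 6 arms that hold peaks) and sequence was genome release 6, the build named dm6. Coordinates are 1-based. First intron means the first intron of any transcript of a host. Members, gene lists, motifs and tests were chosen with earlier results of these data known. Fisher's exact test, the exact McNemar test (a summit and its own flank) and the exact binomial test were two-sided, with BH adjustment within a family and a threshold of 0.05. They were tested on simulated data. With 1 group, no test compares samples. Genes are named as the hosts of the 25 strongest members in all 3 replicates, the 5 hosts with the most members, up to 3 hosts per gene list by strongest signal, and the hosts nearest the length limit. osa and the tRNA genes were chosen after values had been seen. Python 3.11.15, numpy 2.4.6, pandas 2.3.3 and scipy 1.17.1 were used. Alternatives changed the TSS distance, host limit, exon set, peak set, matching distance, motif window and flank, and left out each replicate. Leaving out a replicate kept as members only those recovered by every other replicate. The IDR list was not remade, so it still draws on the replicate left out. The dm3 lists were not used. One of the gene lists is not reported here.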

Additional observations from a re-analysis of the deposited data

How the results depend on the processing

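Log2 odds ratios are given unless said otherwise. No paired analysis was possible because the series holds 1 group. The excess of reproducible peaks over longer hosts and over intergenic summits, the first intron share, the share near a TSS, the share of hosts with a peak at a TSS and the lower GC content at summits kept their direction and stayed past the threshold under every alternative run for them. The number of members was 1077 with a host limit of 25 kb and 764 among the strongest 2700 IDR peaks. The share of each replicate's strongest peaks that meet the rule was 33.7% and 26.0% with TSS distances of 100 and 500 bp, 19.8% and 38.2% with host limits of 25 and 100 kb, 30.7% with exons of protein-coding genes only and 28% for the strongest 2700. Strength against intergenic peaks became past the threshold at a TSS distance of 100 bp (-0.225, exact BH p = 0.0464) and at the strongest 540 (-1.07). Strength against longer hosts did so at 25 kb (0.279, exact BH p = 0.0318). Recovery against promoters was weaker at 25 kb (-0.295), reversed among the strongest 2700 (0.399, exact BH p = 0.540) and ran from -0.592 to -0.197 over leaving out each replicate, the last without replicate 3.

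Motifs lower at summits than in flanks numbered 2 with the 100 kb limit, the 50 bp window or the right flank and 1 to 2 over leaving out each replicate. That count and the count of higher motifs were 0 among the strongest 2700 and in windows of 35 to 45% GC, a band chosen after seeing the data. Against longer hosts, 1 motif was higher with a TSS distance of 500 bp and with only the strongest of overlapping peaks. Against weaker peaks, 2 were higher at 100 kb, 0 among the strongest 2700, and 0 higher and 1 lower in the GC band, where the A tract reversed to -0.599. With the 25 kb limit the TTTATGG call against weaker peaks (-0.439) and the 2L call (-0.07) were lost and a 3L call (-0.33) was gained. Arms past the threshold numbered 0 among the strongest 2700 and 0 to 1 over leaving out each replicate. Host genes numbered 1935 when a peak at the gene's own TSS also counts and 541 among the strongest 2700. Without members that share an interval with a promoter summit, and for summits over 2 kb from a TSS, both also added after seeing the data, no call changed in the results run under them. The causes of these changes were not tested. Read depth is unknown, so no limit from depth can be given.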
